A study of Mus musculus with 16 samples.

Results

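Calcium pumps and sodium-calcium exchangers are the proteins that return calcium to rest after a signal, and 10 of their genes were followed here through oxygen and glucose deprivation (OGD) and tianeptine (TIA) in mouse cortical neurons. The members were taken by gene symbol, as every line of the expression table named *Atp2b1*, *Atp2b2*, *Atp2b3*, *Atp2b4*, *Atp2a2*, *Slc8a1*, *Slc8a2*, *Slc8a3*, *Slc8b1* or *Slc24a2*. They make up 10 of 53776 genes and 61 of 135202 isoforms in the table, and 30 of those isoforms belong to the 4 *Atp2b* genes. Primary cultures were made from the cortex of wild-type mouse embryos at E15. On day in vitro (DIV) 8 they received 10 μM TIA, an atypical antidepressant, or its vehicle (VEH), which the labels also call untreated. After 24 h, on DIV 9, they went through 3 h of OGD or a sham exposure (CONTROL), and RNA was taken at 6 h of reoxygenation. This gave 4 groups of 4 cultures: CONTROL-VEH (cultures 1 to 4), CONTROL-TIA (5 to 8), OGD-VEH (9 to 12) and OGD-TIA (13 to 16).

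A cell keeps its cytosolic calcium far below the level outside, and a neuron lets calcium in with every burst of firing, so it depends on transporters that push calcium out again. Plasma membrane calcium ATPases (PMCA, the *Atp2b* genes) spend ATP to do so and are switched on by calmodulin, while sarco/endoplasmic reticulum ATPases (SERCA, *Atp2a2*) refill the internal store. Sodium-calcium exchangers (NCX, the *Slc8a* genes) use the sodium gradient in place of ATP, can run backwards when sodium builds up, and are well known in the study of ischaemic neurons for that reason. *Slc8b1* encodes the exchanger of the inner mitochondrial membrane (NCLX), and *Slc24a2* a potassium-dependent exchanger of neurons (NCKX2).

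Messenger RNA was read by stranded single-end sequencing, and the deposited values are FPKM, that is reads per kilobase of isoform scaled to the size of the library. Depth, estimated from the steps of the FPKM values, was 20.9 to 27.2 M reads per culture (M, mega) with a median of 25.15, above the 18 to 23 M aligned reads stated in the labels, and lowest in OGD-VEH (20.9 to 24.6 M). The 12 neuronal markers looked at were all measured, and their summed FPKM was 3486 to 4103 in CONTROL-VEH and 3467 to 3740 in CONTROL-TIA. After OGD the sum was lower and uneven, at 3065, 2172, 2147 and 1389 in cultures 9 to 12 and 3397, 3173, 3384 and 1910 in cultures 13 to 16. Astrocyte markers (8 genes) summed to 768 to 1640, 672 to 889, 1033 to 2606 and 773 to 1980 FPKM, and oligodendrocyte lineage markers (8 genes) to 177 to 213, 159 to 194, 244 to 676 and 225 to 438, in the controls without and with TIA and the OGD cultures without and with TIA, in that order. Only 1 of 8 microglial markers and 2 of 10 markers of endothelial, mural and fibroblast cells had a mean of 0.5 FPKM or more. In such bulk samples, fewer cells of a type and less RNA per cell cannot be told apart, and this holds for every OGD result here. Nothing in the labels says whether the cultures of a group came from separate preparations, so p-values measure the spread between these cultures.

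All 10 genes were detected in all 16 cultures. Per length, the order of the summed isoform FPKM in CONTROL-VEH was led by *Atp2b1* (173 FPKM ± 22.4, SD, n = 4), the widely expressed PMCA1, and *Atp2a2* (118 ± 13.1), the SERCA2 pump. *Atp2b4* followed at 77.9 ± 14.9, then *Slc8a2* at 35.0 ± 3.89 and *Atp2b2* at 28.5 ± 3.03, whose range overlapped that of *Slc8a1* (22.5 ± 2.66). *Atp2b3* (9.25 ± 1.51) and *Slc8a3* (7.28 ± 0.791) overlapped as well. *Slc24a2* (3.08 ± 0.324) and *Slc8b1* (0.994 ± 0.880) were the lowest. Short isoforms matter for this order: isoforms of at most 1000 bases held 37.9% of the *Atp2b1* FPKM and 55.3% of the *Atp2b4* FPKM, but 11.8% or less for each of the other members. With each isoform weighted by its length, *Atp2a2* came first (98.0 FPKM) and *Atp2b1* next (68.2), while *Slc8a2* (29.5), *Atp2b4* (24.7), *Atp2b2* (23.8) and *Slc8a1* (22.0) each overlapped their neighbour in the order.

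OGD without TIA lowered several members. In OGD-VEH vs. CONTROL-VEH, *Atp2b4*, *Atp2b3* and *Slc8a2* were downregulated by more than 1 on the log2(FPKM + 0.1) scale, on which all log2 fold changes here are given, and *Slc8a1* fell by less. A gene was called a DEG when limma's adjusted p (padj) was at most 0.05 and its log2 fold change at least 1 in size. By that rule 3 of 10 members were downregulated DEGs, beside 1.68% of the 16373 genes tested, and 4 of 10 members fell with padj at most 0.05, beside 3.44% of all genes. In 6 members (*Atp2b1*, *Atp2b3*, *Atp2b4*, *Slc8a1*, *Slc8a2* and *Slc8a3*) no OGD-VEH culture reached the lowest CONTROL-VEH culture, beside 9.94% of all genes. With isoforms weighted by length the groups overlapped for *Atp2b1* but not for *Atp2a2* or *Slc24a2*. The estimate was below 0 for 9 of 10 members, the exception being *Slc8b1*, and the median log2 fold change was -0.73 over the members and 0.10 over all genes. Neuronal markers went the same way, with all 12 estimates below 0, a median of -0.93, 7 of 12 without overlap and 1 of 12 past padj 0.05, and their part in the members' values was not tested.

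**Figure D1:**
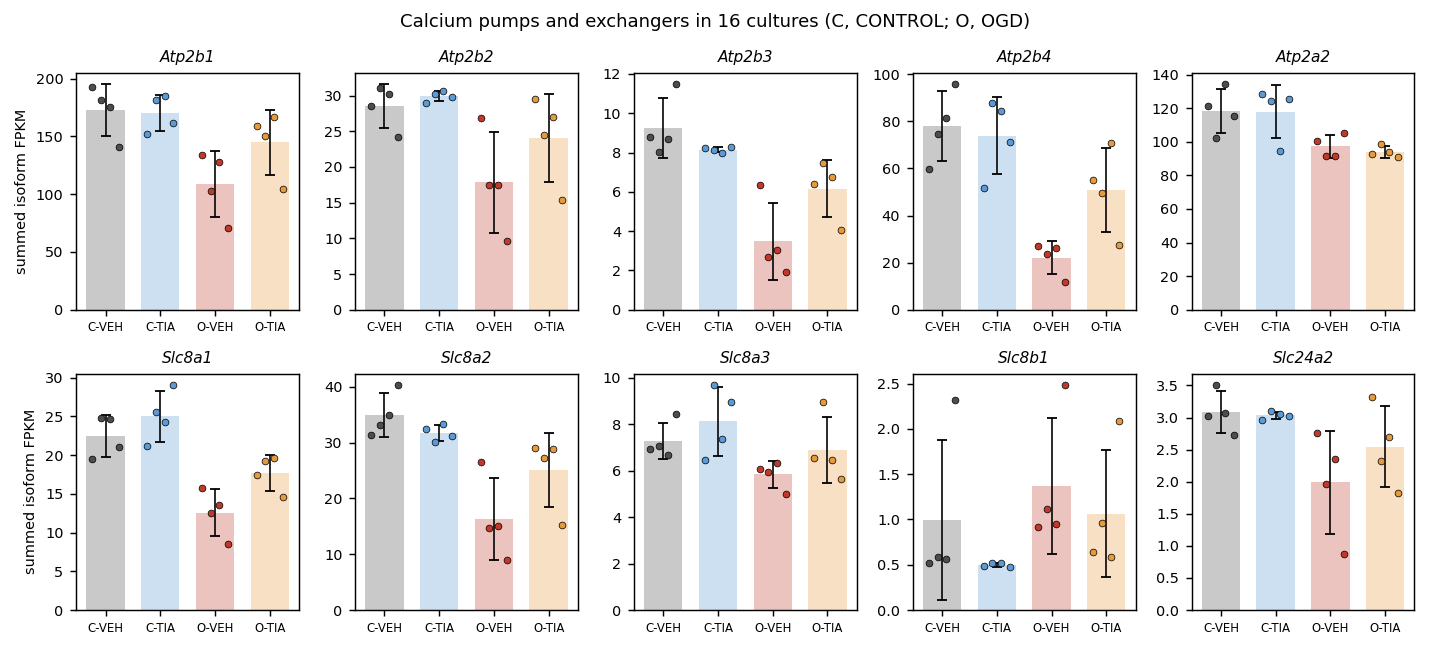
Summed FPKM of the 10 genes in each group. Bars are means, error bars SD (n = 4), and points single cultures in the order of their numbers, with a linear axis from 0 for each gene. For *Atp2b4* the OGD-VEH cultures sit between 11.6 and 26.9 FPKM, all below the CONTROL-VEH cultures at 59.7 to 95.6.

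The calls rest on few cultures. With culture 1, 2, 3, 4, 10 or 11 left out, no member was a DEG or had a padj of at most 0.05 in OGD-VEH vs. CONTROL-VEH. Without culture 12, *Atp2b4* alone passed (limma padj = 0.0307). Without culture 9, which had the highest level of 7 members within OGD-VEH, 6 members passed padj 0.05, *Atp2b1* and *Atp2b2* being added. Over all genes the number of DEGs ran from 1 to 2187 with a culture left out, against 668 with all 8. Every leave-one-out estimate of the 10 genes kept its sign in this comparison.

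*Atp2b4* encodes PMCA4 and lies on chromosome 1, 133699457 to 133801041, minus strand (GRCm38, here and below). Its summed FPKM was 59.7, 74.8, 81.4 and 95.6 in CONTROL-VEH cultures 1 to 4 and 26.9, 23.6, 26.4 and 11.6 in OGD-VEH cultures 9 to 12. The groups were far apart, with the highest OGD-VEH culture well below the lowest control. On summed FPKM this was the steepest fall among the members, with a log2 fold change of -1.86 (SE 0.28, 95% confidence interval -2.50 to -1.22, limma padj = 0.0284), or 3.64-fold lower. With isoforms weighted by length it was -1.24 (limma padj = 0.026), and *Atp2b3* was then the steepest at -1.49 (limma padj = 0.0279). On summed FPKM the padj of *Atp2b4* lay between 0.005 and 0.1002 when single cultures were left out. With TIA the values were 51.7, 87.9, 84.3 and 71.4 in CONTROL-TIA and 55.1, 49.8, 70.6 and 27.4 in OGD-TIA. Here the groups overlapped, since culture 5 was low for a control, and the log2 fold change was -0.59 (SE 0.29, limma padj = 0.3034). Weighted by isoform length it was -0.53 (limma padj = 0.0953), and the groups did not overlap.

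*Atp2b3* encodes PMCA3, a pump found mainly in brain, and lies on chromosome X, 73503086 to 73571005, plus strand. CONTROL-VEH cultures had 8.79, 8.05, 8.67 and 11.5 FPKM, and OGD-VEH cultures 6.33, 2.70, 3.03 and 1.90. All 4 OGD-VEH cultures were below all controls, culture 9 being much closer to them than the other three. The log2 fold change was -1.51 (SE 0.33, 95% confidence interval -2.26 to -0.75, limma padj = 0.0408, leave-one-out padj 0.0025 to 0.1156), or 2.84-fold lower. In the TIA arm the gene went from 8.26, 8.12, 7.96 and 8.26 FPKM in CONTROL-TIA, a very even group, to 6.42, 7.46, 6.74 and 4.06 in OGD-TIA. These groups did not overlap either, and the log2 fold change was -0.43 (SE 0.18, limma padj = 0.245).

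*Atp2b1*, on chromosome 10, 98914406 to 99026143, plus strand, encodes PMCA1, the most widely expressed form. It had 193, 181, 175 and 141 FPKM in CONTROL-VEH and 134, 103, 128 and 71.0 in OGD-VEH. The groups did not overlap, though culture 4 came close to culture 9, and the log2 fold change of -0.70 (SE 0.21, 95% confidence interval -1.17 to -0.23) missed the threshold (limma padj = 0.0614). CONTROL-TIA had 152, 181, 185 and 162 FPKM and OGD-TIA 159, 150.0, 167 and 104, which overlapped, with a log2 fold change of -0.25 (SE 0.15, limma padj = 0.3932).

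*Atp2b2*, on chromosome 6, 113743831 to 114042613, minus strand, encodes PMCA2, a fast pump known from hair cells and cerebellar Purkinje cells. Its values were 28.6, 31.1, 30.2 and 24.3 FPKM in CONTROL-VEH and 26.8, 17.5, 17.5 and 9.57 in OGD-VEH. Culture 9 lay within the control range and the other OGD-VEH cultures below it, and the log2 fold change was -0.76 (SE 0.28, limma padj = 0.0971). With TIA, CONTROL cultures had 28.9, 30.3, 30.7 and 29.8 FPKM and OGD cultures 29.5, 24.4, 27.0 and 15.3, so that culture 13 reached the control level (log2 fold change -0.35, SE 0.19, limma padj = 0.3371).

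*Atp2a2* encodes SERCA2, the main pump of the endoplasmic reticulum, and lies on chromosome 5, 122453513 to 122502225, minus strand. It moved little. CONTROL-VEH cultures had 121, 103, 134 and 115 FPKM and OGD-VEH cultures 101, 91.7, 91.6 and 105, with an overlap between cultures 2 and 12 and a log2 fold change of -0.28 (SE 0.11, limma padj = 0.1144). With isoforms weighted by length the estimate was -0.25 and passed the threshold (limma padj = 0.0365), and the groups then did not overlap. On that measure 5 of 10 members fell with padj at most 0.05, beside 9.68% of all genes. CONTROL-TIA had 128, 124, 94.2 and 125 FPKM and OGD-TIA 92.6, 98.6, 93.9 and 90.7, a narrow group that only culture 7 of the controls overlapped (log2 fold change -0.32, SE 0.11, limma padj = 0.1898). Length weighting brought that estimate to -0.09 (SE 0.05, limma padj = 0.3049).

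Among the exchangers, *Slc8a2*, which encodes the brain form NCX2, on chromosome 7, 16129826 to 16161063, plus strand, was lowered most. CONTROL-VEH cultures had 31.4, 33.2, 34.9 and 40.4 FPKM and OGD-VEH cultures 26.4, 14.7, 15.1 and 8.90. No OGD-VEH culture reached a control, and culture 9 again stood above the others. The log2 fold change was -1.20 (SE 0.29, 95% confidence interval -1.86 to -0.54, limma padj = 0.0449, leave-one-out padj 0.0044 to 0.1207), or 2.29-fold lower. CONTROL-TIA had 32.4, 30.1, 33.3 and 31.2 FPKM and OGD-TIA 29.0, 27.2, 28.8 and 15.2, again without overlap but with 3 OGD cultures just below the controls (log2 fold change -0.39, SE 0.20, limma padj = 0.33).

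*Slc8a1* encodes NCX1, best known as the exchanger of the heart and also present in neurons and glia, and lies on chromosome 17, 81373105 to 81738377, minus strand. Its levels were 19.5, 24.8, 24.7 and 21 FPKM in CONTROL-VEH and 15.8, 12.5, 13.5 and 8.48 in OGD-VEH. All OGD-VEH cultures were below all controls, with a log2 fold change of -0.86 (SE 0.20, 95% confidence interval -1.31 to -0.41, limma padj = 0.0437, leave-one-out padj 0.01 to 0.1163). In CONTROL-TIA the levels were 21.1, 25.6, 24.2 and 29.1 FPKM and in OGD-TIA 17.5, 19.3, 19.6 and 14.5. These did not overlap, and the log2 fold change of -0.50 (SE 0.14, 95% confidence interval -0.81 to -0.19) had the smallest padj among the members in the TIA arm (limma padj = 0.145).

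*Slc8a3* encodes NCX3 of brain and skeletal muscle, on chromosome 12, 81197915 to 81333180, minus strand. It had 6.94, 7.04, 6.68 and 8.44 FPKM in CONTROL-VEH and 6.09, 5.95, 6.34 and 4.98 in OGD-VEH, groups that were close but did not overlap (log2 fold change -0.31, SE 0.14, limma padj = 0.1516). With TIA the CONTROL cultures had 6.46, 9.70, 7.36 and 8.96 FPKM and the OGD cultures 6.53, 8.95, 6.44 and 5.65, which overlapped widely (log2 fold change -0.24, SE 0.18, limma padj = 0.484, and -0.08 with isoforms weighted by length). The 3 NCX genes therefore ranged from -1.20 to -0.31 in OGD-VEH vs. CONTROL-VEH.

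*Slc8b1*, the mitochondrial exchanger, on chromosome 5, 120511168 to 120534024, plus strand, was the member with an estimate above 0. Its level was near the lower limit of what was tested, with an estimated 31 to 147 reads per culture. CONTROL-VEH cultures had 0.520, 0.584, 0.559 and 2.31 FPKM and OGD-VEH cultures 0.921, 1.12, 0.955 and 2.49, so that culture 4 stood apart among the controls and culture 12 among the OGD cultures. The log2 fold change was 0.58 (SE 0.51, 95% confidence interval -0.59 to 1.76, limma padj = 0.4442). CONTROL-TIA had 0.484, 0.516, 0.524 and 0.478 FPKM, a very even group, and all OGD-TIA cultures were above it at 0.636, 0.957, 0.581 and 2.08 (log2 fold change 0.79, SE 0.38, limma padj = 0.2874). In each OGD group the culture with the highest *Slc8b1* had the lowest sum of neuronal markers, whereas in CONTROL-VEH culture 4 had both the highest *Slc8b1* and the highest sum of all 16 cultures.

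*Slc24a2*, on chromosome 4, 86983124 to 87230477, minus strand, had 3.02, 3.51, 3.08 and 2.73 FPKM in CONTROL-VEH and 2.76, 1.97, 2.35 and 0.880 in OGD-VEH. Culture 9 lay just inside the control range, and the log2 fold change was -0.71 (SE 0.33, limma padj = 0.1577). CONTROL-TIA had 2.97, 3.10, 3.05 and 3.02 FPKM and OGD-TIA 3.33, 2.32, 2.70 and 1.83, culture 13 being above all controls (log2 fold change -0.28, SE 0.18, limma padj = 0.4175).

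**Figure D2:**
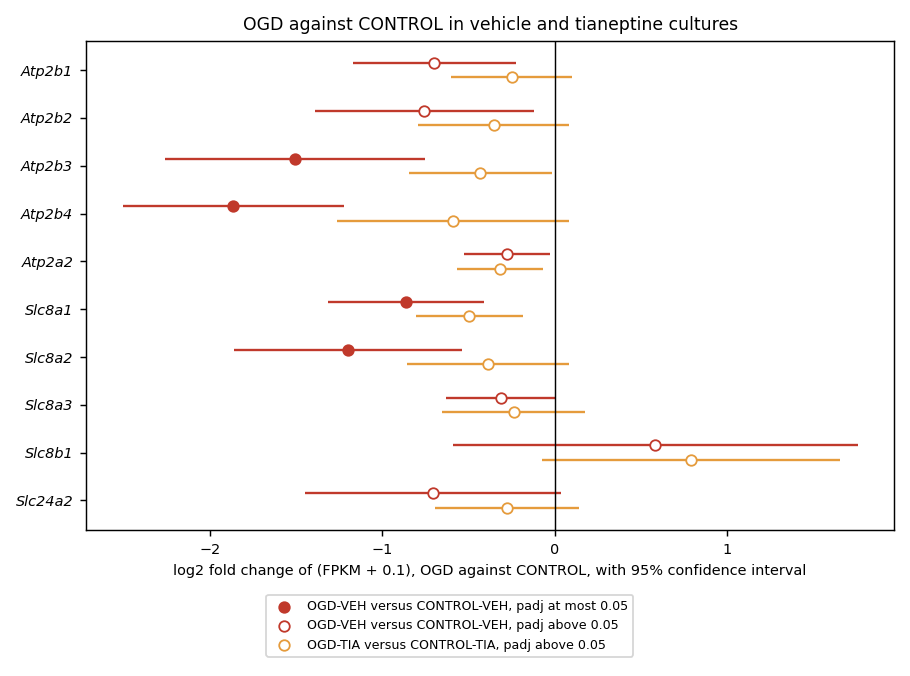
Log2 fold change of (FPKM + 0.1), OGD against CONTROL, for each gene without TIA (red) and with TIA (orange). Points are estimates, lines 95% confidence intervals, and filled points have a padj of at most 0.05, which 4 genes without TIA and none with TIA reached.

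The cultures differed among themselves in a like manner for most members. Within OGD-VEH, culture 12 had the lowest level of 8 of 10 members and culture 9 the highest of 7. Within OGD-TIA, culture 16 was lowest for 9 of 10 members. Cultures 12 and 16 also had the lowest sums of neuronal markers, and culture 9 the highest sum in OGD-VEH.

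Members were therefore also set against the summed FPKM of the 12 neuronal markers, as a description chosen after the values were seen. On this scale, with summed FPKM, 3 of 10 members had all OGD-VEH cultures below all CONTROL-VEH cultures, beside 0.788% of all genes. The marker sum was lower in every OGD culture than in the controls of its arm, so dividing by it raised every gene after OGD. The division itself thus lowers the share over all genes, which was 9.94% before it, and the excess of members over 0.788% was not tested. *Atp2b4* had a mean of 20.7 FPKM per 1000 FPKM of neuronal markers in CONTROL-VEH (16.9 to 23.3) and 10.1 in OGD-VEH (8.36 to 12.3). With isoforms weighted by length its groups overlapped on this scale, because culture 12 stood above culture 1. Its length-weighted FPKM was 8.04 in OGD-VEH culture 12 and 19.989 in CONTROL-VEH culture 1, beside marker sums of 1388.5 and 3543.7. *Atp2b3* and *Slc8a2* stayed without overlap under that weighting. On summed FPKM *Atp2b3* had 2.46 (2.27 to 2.79) and 1.52 (1.24 to 2.06), and *Slc8a2* 9.34 (8.85 to 9.84) and 7.21 (6.41 to 8.63). The other 7 members overlapped, *Atp2b1* for example at 46.7 (34.3 to 54.5) and 50.4 (43.7 to 59.4) and *Slc8a1* at 6.04 (5.12 to 7.11) and 5.83 (5.16 to 6.30). With TIA no member was lower without overlap on this scale, beside 1.41% of all genes, and *Slc8b1* alone was higher without overlap, at 0.140 (0.128 to 0.149) in CONTROL-TIA and 0.438 (0.172 to 1.09) in OGD-TIA. The division favours such a rise, and *Slc8b1* was higher without overlap before it too. The share of all genes higher on this scale is not given here.

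**Figure D3:**
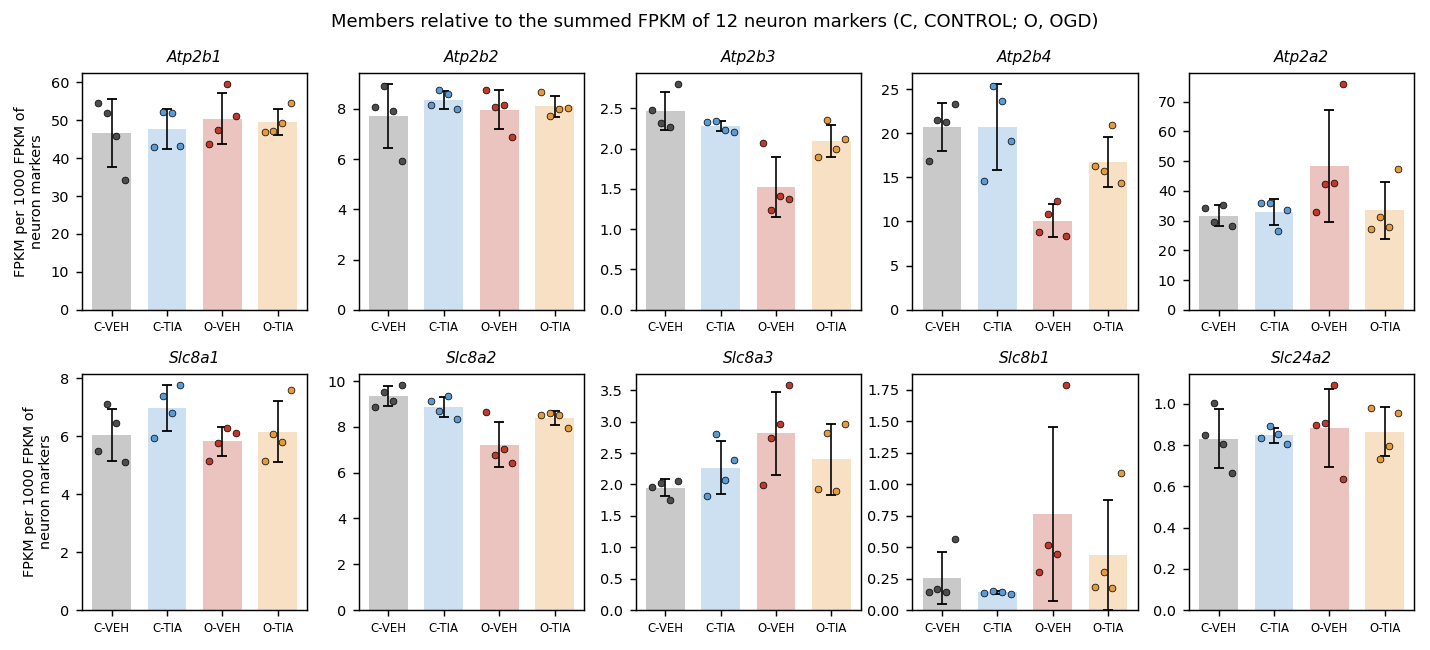
Summed isoform FPKM of each gene, not weighted by length, per 1000 FPKM summed over 12 neuronal markers. Bars are means, error bars SD (n = 4), cut at 0, and points single cultures. *Atp2b3*, *Atp2b4* and *Slc8a2* have all OGD-VEH cultures below all CONTROL-VEH cultures, and the other 7 genes overlap.

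With TIA present, no member was called. In OGD-TIA vs. CONTROL-TIA limma gave 0 DEGs among the 10 members and 0 over all genes (0.0%), while 3 members (*Atp2b3*, *Atp2a2* and *Slc8a1*) and 3178 of 16270 genes had an unadjusted p under 0.05. With isoforms weighted by length the 3 members were *Atp2b3*, *Atp2b4* and *Slc8a1*, and *Atp2a2* had an unadjusted limma p of 0.1311. The estimates were below 0 for 9 of 10 members, with a median of -0.34 over the members and 0.04 over all genes. In 3 members (*Atp2b3*, *Slc8a1* and *Slc8a2*) no culture of OGD-TIA reached the lowest of CONTROL-TIA, beside 6.71% of all genes. With isoforms weighted by length 0 members had a padj of at most 0.05, beside 0.562% of all genes in the downward direction, and 1 member, *Atp2b4*, had it once culture 16 was left out. Neuronal markers had all 12 estimates below 0 with a median of -0.52.

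Over both arms, OGD against CONTROL with TIA as a term in the fit, 7 of 10 members fell with padj at most 0.05, beside 13.4% of all genes. They were all 4 PMCA genes, *Atp2a2*, *Slc8a1* and *Slc8a2*, with *Slc8a1* having the smallest padj (log2 fold change -0.68, SE 0.13, limma padj = 0.0028). *Atp2b4* (-1.23, SE 0.26, limma padj = 0.0049) was the only DEG, beside 1.98% of all genes, and was not a DEG with isoforms weighted by length (-0.88), and *Atp2b3* was just inside the fold threshold (-0.97, SE 0.24, limma padj = 0.0084). Leaving out single cultures gave 6 to 8 members past padj 0.05, *Atp2b2* being lost without culture 1, 2, 3, 10 or 16, and 1 or 2 DEGs. Length weighting brought *Atp2a2* from -0.30 to -0.17, still past the threshold (limma padj = 0.0066). On summed FPKM *Slc8a3* (limma padj = 0.0652), *Slc24a2* (limma padj = 0.0612) and *Slc8b1* (0.69, limma padj = 0.11) missed the threshold. With isoforms weighted by length *Slc8a3* (limma padj = 0.0368) and *Slc24a2* (limma padj = 0.0242) passed it. On that measure 9 of 10 members fell with padj at most 0.05, beside 2772 of 16045 genes. All 12 neuronal markers had estimates below 0 in the same fit, with a median of -0.62, and 9 had a padj of at most 0.05.

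Whether OGD acted differently with TIA was asked by the interaction, the OGD effect with TIA minus the OGD effect without it. No member passed (smallest limma padj = 0.7226), nor did any gene (0.0% DEGs). An unadjusted p under 0.05 was reached by 3 of 10 members, beside 990 of 16339 genes. The estimates were above 0 for 9 of 10 members, that is, the OGD estimate was less negative or more positive with TIA. They were 1.27 for *Atp2b4* (95% confidence interval 0.35 to 2.20), 1.08 for *Atp2b3* (0.23 to 1.92) and 0.81 for *Slc8a2* (0.01 to 1.61). That of *Atp2b4* was 0.71 with isoforms weighted by length (0.15 to 1.27). For *Atp2a2* the estimate was -0.04 (-0.36 to 0.28), and its sign turned under several alternatives. A call in the vehicle arm without a call in the TIA arm is thus not a tested difference between the arms.

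The direct comparison of treated and untreated cultures after OGD gave a like answer. In OGD-TIA vs. OGD-VEH the estimate was above 0 for 8 of 10 members and limma called none (padj 0.551 or more), with 0.0% DEGs over all genes. An unadjusted p under 0.05 was reached by 3 members (*Atp2b3*, *Atp2b4* and *Slc8a1*), beside 1293 of 16377 genes. On summed FPKM *Atp2b4* was the member whose OGD-TIA cultures were all above the OGD-VEH cultures, culture 16 at 27.4 against culture 9 at 26.9 FPKM, beside 1.29% of all genes. Its log2 fold change was 1.19 (SE 0.36, 95% confidence interval 0.37 to 2.0). With isoforms weighted by length it was 0.63 (0.13 to 1.13), the groups overlapped, and 0 members had all cultures higher. *Atp2b3* had 0.91 (0.08 to 1.74), *Slc8a2* 0.68 (-0.11 to 1.47) and *Slc8a1* 0.52 (0.05 to 0.98). Among the alternatives run, only a fit that gave each culture a quality weight called members here, with a padj of at most 0.05 for these 4 genes, 2 of them DEGs (*Atp2b3* at 1.16 and *Atp2b4* at 1.20), and 406 DEGs over all genes. Neuronal markers had 10 of 12 estimates above 0 and a median of 0.51 in the same comparison.

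In cultures without OGD, TIA changed no member detectably. In CONTROL-TIA vs. CONTROL-VEH limma gave a padj of 0.9994 for all 10 genes and 0.0% DEGs over all genes. None of the 10 had an unadjusted p under 0.05, beside 623 of 16193 genes. The log2 fold changes lay between -0.59 (*Slc8b1*, which rests on culture 4) and 0.15 (*Slc8a1*). For *Atp2b4* the 95% confidence interval was -0.54 to 0.37 and for *Atp2b3* -0.44 to 0.10. With 4 cultures per group, changes within these intervals remained compatible with the data.

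The *Atp2b* genes give rise to many isoforms, of which 3 per gene carried most of the FPKM. PMCA splice forms are known to differ at their C-terminal end, where calmodulin binds. In *Atp2b3* the 3 isoforms share their first 3342 coding bases and then run into different exons, so the sequences at this point are what tells them apart. They are printed for the plus strand of chromosome X from GENCODE M21 (GRCm38), with the last 30 bases before the split in lower case and, in capitals, up to 120 coding bases that follow it in that isoform. The capitals of Atp2b3-202 are not unique to it, since other isoforms of the gene hold all of its bases. The next exon lies at chrX:73558032-73558214 in Atp2b3-201, at chrX:73570234-73571005 in Atp2b3-202 and at chrX:73559864-73560017 in Atp2b3-203.
Atp2b3-201: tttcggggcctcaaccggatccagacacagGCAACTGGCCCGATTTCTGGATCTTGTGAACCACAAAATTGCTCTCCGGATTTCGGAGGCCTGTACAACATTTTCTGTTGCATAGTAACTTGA
Atp2b3-202: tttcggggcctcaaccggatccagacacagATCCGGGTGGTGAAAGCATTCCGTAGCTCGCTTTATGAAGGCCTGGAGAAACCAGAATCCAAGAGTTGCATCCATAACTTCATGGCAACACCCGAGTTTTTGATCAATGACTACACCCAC
Atp2b3-203: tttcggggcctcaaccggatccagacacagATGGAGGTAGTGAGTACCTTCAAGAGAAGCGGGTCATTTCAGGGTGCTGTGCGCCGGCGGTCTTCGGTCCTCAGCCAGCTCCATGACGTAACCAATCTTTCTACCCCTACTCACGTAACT

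Atp2b3-201 ends its coding sequence 93 bases after the split, Atp2b3-202 321 bases after it and Atp2b3-203, through an exon of 154 bases, 180 bases after it. The isoform with the shortest end, Atp2b3-201, had the lowest estimate of the 3. It had 1.68, 1.02, 1.46 and 1.41 FPKM in CONTROL-VEH and 0.349, 0.259, 0.086 and 0.116 in OGD-VEH (log2 fold change -2.38, SE 0.43, limma padj = 0.1081). In CONTROL-TIA it had 1.03, 1.18, 1.15 and 1.12 FPKM and in OGD-TIA 0.397, 0.297, 0.471 and 0.368 (log2 fold change -1.35, SE 0.27, limma padj = 0.3294). OGD cultures were far below controls in both arms, yet neither comparison passed once adjusted over all isoforms. Its share of the *Atp2b3* FPKM was 15.2% ± 3.31 in CONTROL-VEH and 6.02% ± 2.78 in OGD-VEH, and 13.8% ± 0.95 in CONTROL-TIA and 6.55% ± 2.10 in OGD-TIA (SD, n = 4), without overlap in either arm, and these shares were singled out after their values were seen and not tested.

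The evidence behind that isoform is thin. Its own last exon of 183 bases would carry an estimated 4.1 to 7.8 reads per culture in CONTROL-VEH and 4.9 to 5.6 in CONTROL-TIA, but 0.4 to 1.3 in OGD-VEH and 1.5 to 2.3 in OGD-TIA. The 154-base exon of Atp2b3-203 would carry 4.0 to 20.8 reads over all groups. Atp2b3-202 has 0 bases that no other isoform holds. Apart from reads that cross its own exon join, which were not counted here, its FPKM depends on how shared reads were divided. Atp2b3-203 had 3.48, 4.56, 4.07 and 5.48 FPKM in CONTROL-VEH and 2.87, 1.05, 1.88 and 1.44 in OGD-VEH (log2 fold change -1.30, SE 0.32).

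Across the *Atp2b* isoforms tested, 19 of 19 estimates were below 0 in OGD-VEH vs. CONTROL-VEH, and limma called 0 of them (smallest padj 0.1081), beside 0.141% of all isoforms in either direction. An unadjusted p under 0.05 was reached by 14 of 19, and 9 of 19 had all OGD-VEH cultures below the controls, beside 5.83% of all isoforms. The share of all isoforms with an unadjusted p under 0.05 is not given here, for either arm. Without culture 9, 3 isoforms were called. In OGD-TIA vs. CONTROL-TIA 17 of 20 estimates were below 0, 0 were called (0.0305% of all isoforms), 5 had an unadjusted p under 0.05, and Atp2b3-201 was the isoform with all OGD cultures lower, beside 3.81% of all isoforms.

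In *Atp2b4* the highest coding isoform, Atp2b4-201 (8292 bases), had 18.3, 20.1, 18.2 and 24.8 FPKM in CONTROL-VEH and 12.2, 6.56, 9.96 and 5.55 in OGD-VEH (log2 fold change -1.30, SE 0.27, limma padj = 0.1199). No OGD-VEH culture reached a control. A retained-intron transcript of 432 bases, Atp2b4-205, held the largest part of the gene's FPKM. It had 25.0, 33.6, 38.2 and 35.6 FPKM in CONTROL-VEH but 0.009, 7.57, 11.9 and 0 in OGD-VEH, which means listed at or near 0 in cultures 9 and 12. Its share of the gene's FPKM was 41.8, 45.0, 47.0 and 37.2% in CONTROL-VEH and 0.03, 32.0, 45.2 and 0% in OGD-VEH, where culture 11 reached the controls. The mean shares differed by -23.4 points (two-sided exact permutation p = 0.1143, where 0.0286 is the smallest that 4 against 4 allow), and leaving out culture 11, the culture that reached the controls, necessarily separated the groups (-32.1 points, exact permutation p = 0.0286). Leaving out any of the other 7 cultures gave exact permutation p-values of 0.1143 to 0.2571.

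For the other leading isoforms the shares of the groups overlapped. Atp2b1-201, the longest coding form, held 30.6% ± 4.21 of its gene's FPKM in CONTROL-VEH and 33.5% ± 3.69 in OGD-VEH (exact permutation p = 0.3429). Atp2b2-201 held 61.4% ± 4.27 and 63.5% ± 3.42 (exact permutation p = 0.4571), and Atp2b3-203 47.7% ± 7.02 and 55.6% ± 16.6 (exact permutation p = 0.4857). In the TIA arm the exact permutation p-values of the 4 leading shares lay between 0.4571 and 0.7429. Culture 16 was an exception there, with Atp2b2-201 at 0.035 FPKM and 0.23% of the gene, while Atp2b2-206, which is annotated to nonsense-mediated decay, stood at 11.4 FPKM against 3.67 to 4.68 in cultures 13 to 15. These 8 shares were not adjusted for their number.

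**Figure D4:**
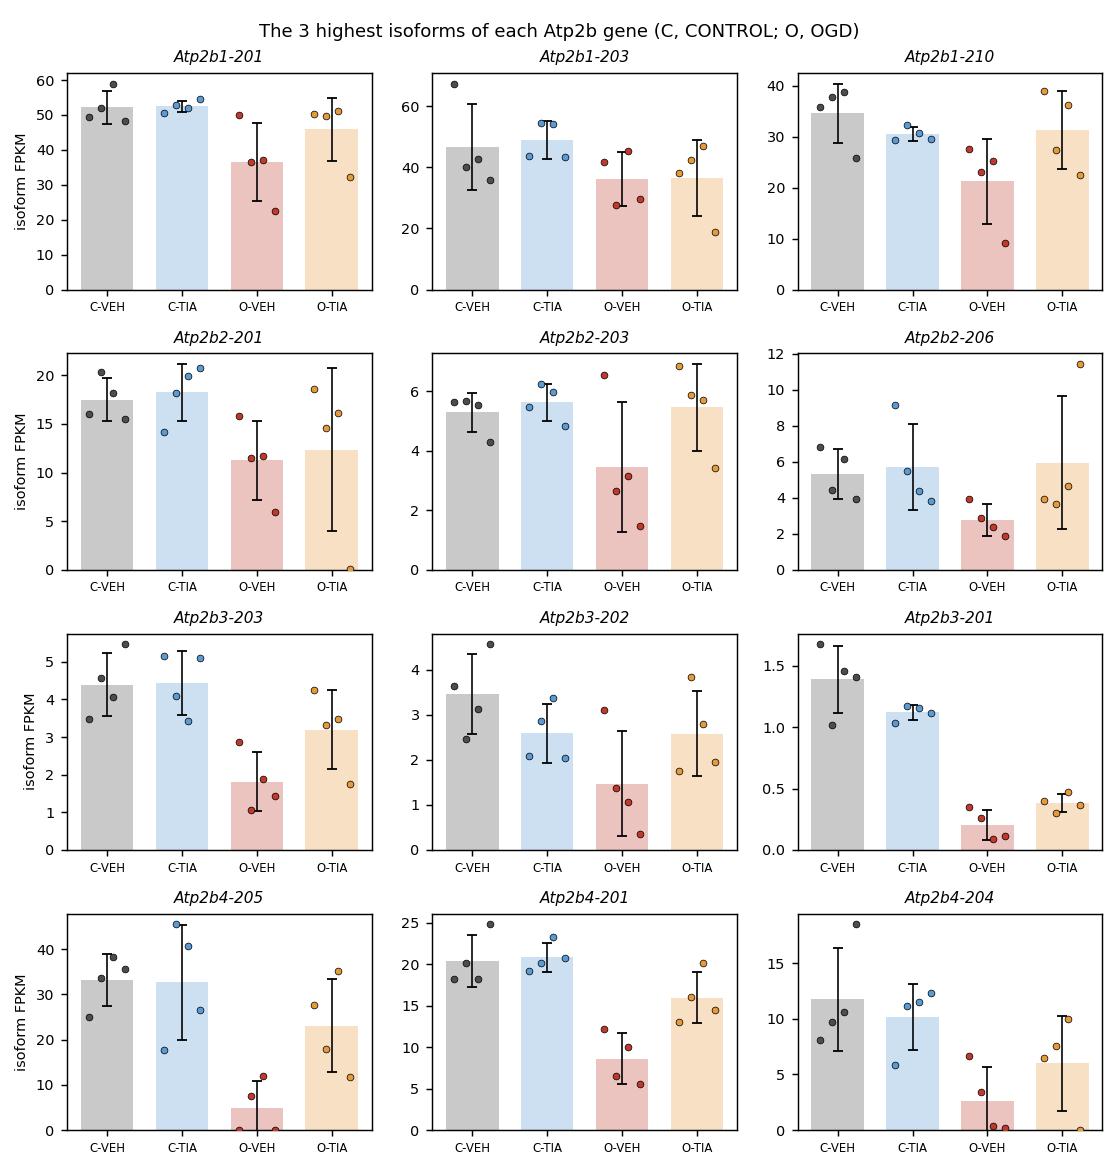
FPKM of the 3 highest isoforms of each *Atp2b* gene, with means (bars), SD (error bars, n = 4) and single cultures (points) on a linear axis from 0. Atp2b3-201 lies at 0.086 to 0.349 FPKM in OGD-VEH and 0.297 to 0.471 in OGD-TIA, below the 1.02 to 1.68 of the controls.

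Other genes of calcium handling were looked at in 6 lists, and 8 of their 36 tested genes had a padj of at most 0.05 in OGD-VEH vs. CONTROL-VEH, beside 8.44% of all genes in either direction. That number ran from 0 to 20 when single cultures were left out. Among 9 tested partners and regulators of the pumps, 4 fell with padj at most 0.05 in OGD-VEH vs. CONTROL-VEH and 1 rose (*Hax1*). *Calm3*, which encodes the calmodulin that switches on the PMCAs, went from a mean of 3049 to 1870 FPKM (log2 fold change -0.73, SE 0.16, limma padj = 0.0416). *Nptn*, which encodes neuroplastin, an accessory subunit of the PMCAs, fell by 0.50 on the log2 scale (SE 0.08, limma padj = 0.0334), from a mean of 1296 to 922 FPKM. *Hax1*, a partner of phospholamban, rose by 0.45 (SE 0.09, limma padj = 0.0353). The sodium pump sets the gradient on which the exchangers run, and 0 of its 6 tested subunits passed padj 0.05 in this comparison.

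Of 9 genes of mitochondrial calcium transport 1 rose with padj at most 0.05, *Smdt1*, which encodes a subunit of the uniporter (log2 fold change 0.46, SE 0.11, limma padj = 0.0443), and 0 fell by that rule. Of 8 cytosolic calcium buffers and sensors 1 fell with padj at most 0.05, *Hpca*, encoding hippocalcin (-1.22, SE 0.24, limma padj = 0.0347). In that list 5 of 8 estimates were below 0 and 3 above, with a median of -1.04. All OGD-VEH cultures were below the controls in 4 of the 8, beside 9.94% of all genes. In the remaining pumps of the endoplasmic reticulum and secretory pathway 1 of 2 tested genes rose, the Golgi transporter *Tmem165* (0.44, SE 0.10, limma padj = 0.0408), while *Atp2c1*, the Golgi calcium and manganese pump, had -0.39 (SE 0.14, limma padj = 0.0881). Neither of the 2 tested NCKX relatives of *Slc24a2* passed, *Slc24a3* having -0.74 (SE 0.24, limma padj = 0.0757). In OGD-TIA vs. CONTROL-TIA limma gave 0 of 35 tested genes of these lists a padj of at most 0.05. An unadjusted p under 0.05 was reached by 8 of the 35, beside 3178 of 16270 genes. *Calm3* there had a log2 fold change of -0.27 (SE 0.13, limma padj = 0.2891) and *Nptn* -0.23 (SE 0.09, limma padj = 0.2395).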

How the data were processed

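RNA from 16 cultures of mouse cortical neurons was sequenced as stranded messenger RNA libraries with single-end reads of 50 bases. The authors' provider aligned reads to GRCm38 (Ensembl 92) with STAR, estimated isoform abundance with eXpress and normalised it, and the deposited values are isoform FPKM. Isoforms were summed per gene symbol. In the table, 74 of 135276 lines carried no identifier and were not used, and 99.89% of isoforms matched GENCODE M21, from which lengths, coordinates and sequences were taken.

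Genes averaging 0.5 FPKM or more over the compared cultures were tested on log2(FPKM + 0.1) with limma 3.58.1 (R 4.3.3; empirical Bayes with trend, Benjamini-Hochberg over all genes), since FPKM are not counts. Isoforms were tested in the same way, and leading-isoform shares with exact permutation tests. DEGs had padj at most 0.05 and an absolute log2 fold change of at least 1. Other steps ran in Python 3.11.15 with pandas 2.3.3, numpy 2.4.6, matplotlib 3.10.9 and scipy 1.17.1. The fits were tested on simulated data in which both groups had the spread of the CONTROL-VEH cultures and genes varied independently. That setting does not cover the uneven OGD cultures. Other pseudocounts, filters, scalings, weights and length-weighted sums were tried, and each culture was left out in turn. Depth was estimated from FPKM steps of 17633 genes with 1 isoform, 1 read on 1 kb being worth 0.0367 to 0.0478 FPKM.

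All members were named whatever their values, with the 3 highest isoforms of each *Atp2b* gene, and at most 3 genes of each other list (smallest p in each OGD comparison, highest mean), of which some are not reported here. Members and lists were chosen with earlier results of these data known.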

Additional observations from a re-analysis of the deposited data

Results flagged for a closer look

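A culture far from the other 3 of its group, by Dixon's 95% critical value for 4 values, was looked for in 40 groups of member values and 48 groups of isoform values. It was found in 4 and 3 of them, and chance alone gives about 1 in 20 groups. *Atp2a2* was lowest in CONTROL-TIA culture 7, at 94.2 FPKM beside 124.1 to 128.2 in the others. *Slc8a2* was lowest in OGD-TIA culture 16, at 15.2 FPKM beside 27.2 to 29.0. *Slc8b1* was highest in CONTROL-VEH culture 4, at 2.31 FPKM beside 0.520 to 0.584, and in OGD-VEH culture 12, at 2.49 FPKM beside 0.921 to 1.12. Among the isoforms, Atp2b1-201 was lowest in OGD-TIA culture 16, at 32.2 FPKM beside 49.8 to 51.2, and Atp2b2-203 in CONTROL-VEH culture 4, at 4.29 FPKM beside 5.53 to 5.67. Atp2b2-206 was highest in OGD-TIA culture 16, at 11.4 FPKM beside 3.67 to 4.68.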

How the results depend on the processing

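No paired analysis was run. Culture numbers run on from 1 to 16, and the labels do not say whether cultures of different groups came from the same preparation. No member changed direction in any OGD against CONTROL comparison, in either arm or over both. In OGD-VEH vs. CONTROL-VEH, no filter gave 0 member DEGs, 0 members past padj 0.05 and 36 DEGs over all genes, quality weights gave 7 members past padj 0.05 and 1930 DEGs, length weighting 1025 DEGs and a fit on all 16 cultures 1415, against 3, 4 and 668. Leaving out single cultures gave 0 to 3 member DEGs, 0 to 6 members past padj 0.05 and 1 to 2187 DEGs, and with length weighting (chosen after seeing the data) 0 to 3, 0 to 8 and 1 to 2073, with 431 without culture 4 and 430.0 without culture 12. In OGD-TIA vs. CONTROL-TIA, DEGs over all genes were 7 (no filter), 80 (quality weights), 48 (length weighting) and 1 (all 16 cultures), against 0, and 0 to 17 with single cultures left out (length-weighted 0 to 102, with 0 to 1 member past padj 0.05). In OGD-TIA vs. OGD-VEH, quality weights gave 2 member DEGs, 4 members past padj 0.05 and 406 DEGs, no filter 4 DEGs, and single cultures left out 0 to 2. No filter gave 4 DEGs in CONTROL-TIA vs. CONTROL-VEH and 3 in the interaction, which had 0 to 1 with single cultures left out. Over both arms, member DEGs were 2 (median-ratio scaling), 0 (quality weights) and 0 (length weighting), against 1, and 1 to 2 with single cultures left out, and a pseudocount of 1 gave 393 DEGs, against 779. The cause of these shifts was not tested.

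Scaling by median ratios moved calls past padj 0.05 from 818 higher and 564 lower to 650 and 674 in OGD-VEH vs. CONTROL-VEH, and from 3055 and 2192 to 2377 and 2666 over both arms. Estimates near 0 turned sign. In CONTROL-TIA vs. CONTROL-VEH these were *Atp2b4* (0.0394, quality weights), *Atp2a2* (0.0011, median-ratio scaling) and *Slc8a3* (-0.11, length weighting), in OGD-TIA vs. OGD-VEH *Atp2a2* (0.000417, median-ratio scaling, 0.0292, quality weights, and 0.088, length weighting), and in the interaction *Atp2a2* (0.0608, quality weights, and 0.156, length weighting) and *Slc8b1* (-0.12, quality weights). With single cultures left out, CONTROL-TIA vs. CONTROL-VEH ranged from -0.109 to 0.0423 for *Atp2b1*, -0.000406 to 0.119 for *Atp2b2*, -0.207 to 0.0748 for *Atp2b4*, -0.0738 to 0.0965 for *Atp2a2* and -0.0725 to 0.0453 for *Slc24a2*, and the interaction from -0.145 to 0.0253 for *Atp2a2*, -0.0561 to 0.165 for *Slc8a3* and -0.265 to 0.517 for *Slc8b1*.

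Of the leading-isoform shares, length weighting turned the OGD-TIA differences of Atp2b1-201 (-0.40 points) and Atp2b4-205 (-0.02) and made that of Atp2b4-205 in OGD-VEH -3.16 points (exact permutation p = 0.0286). With single cultures left out, the OGD-TIA differences ranged from -0.38 to 1.49 points for Atp2b1-201, -20.9 to 0.05 for Atp2b2-201 (positive without culture 16) and -1.10 to 4.71 for Atp2b4-205, and the OGD-VEH difference of Atp2b4-205 from -32.1 to -17.0. Isoform calls in OGD-VEH vs. CONTROL-VEH were 0 to 3. Leaving out cultures for shares and isoforms was chosen after seeing the data. Depth limits the lowest values: *Slc8b1* and Atp2b3-201 rest on few reads, and 50-base reads leave the division between isoforms uncertain.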
